A study of Mus musculus with 21 samples.

Results

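The 10 genes described here encode enzymes that make, modify or break down ceramide: Sptlc1, Sptlc2, Cers1, Cers2, Cers6, Ugcg, Sgms1, Smpd1, Smpd3 and Asah1. They were chosen by symbol and correspond to 10 of the 48474 rows of a table of bulk RNAseq counts from mouse neocortex, the tissue given by the sample labels, as brain cortex in the study's methods, whereas the legend of its expression figure names hippocampus for rNLS8 mice. The comparison was rNLS8 mice against control littermates over all 21 libraries, with cohort in the model, A or B as the batch given in the sample labels. The rNLS8 group (10 mice, 3 in cohort A and 7 in cohort B) carried NEFH-tTA together with tetO-hTDP-43ΔNLS, a human TDP-43 without a working nuclear localization signal that is expressed under the neurofilament heavy chain promoter, thus almost only in neurons, once doxycycline is withdrawn. The control group (11 mice, 4 in cohort A and 7 in cohort B), labelled WT, consisted of monogenic littermates, and which of the transgenes each carried was not given. Every mouse of both groups, at an age of 17-19 weeks, had an antisense oligonucleotide without target injected into the ventricle (350 µg in 10 µL), was fed doxycycline (200 mg/kg) for 2 further weeks and then standard chow for 3 weeks, so that injection and diet were shared by the controls. Sex was not given.

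Sphingolipid synthesis starts in the endoplasmic reticulum, where serine palmitoyltransferase joins serine to a fatty acyl-CoA, and ceramide synthases then attach another fatty acid to the sphingoid base. Ceramide is the branch point: it is turned into sphingomyelin or glucosylceramide in the Golgi, or cleaved by ceramidases to sphingosine, which can be phosphorylated. Galactosylceramide and sulfatide are abundant in myelin and gangliosides in neuronal membranes, and glycosphingolipids and sphingomyelin are broken down in lysosomes.

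Among the 9 members with enough counts for testing, Sptlc2 rose and Ugcg fell in rNLS8 mice, and the other 7 did not pass the test. Sptlc2, a catalytic subunit of serine palmitoyltransferase, was 15.3% higher. Ugcg, the synthase that makes glucosylceramide, the first glycosphingolipid, fell by 18.5%. These 2 of 9 members (22.2%) compare with 44.7% of all 18248 genes tested (8154 genes, of which 4190, or 23% of all, were higher and 3964, or 21.7%, lower; edgeR quasi-likelihood test, adjusted p below 0.05), so the members were called no more often than genes at large. Log2 fold changes were positive for 7 of the 9, and their median was 0.10, against -0.00067 for all genes tested. The median size of the change, regardless of sign, was 0.12 for the members and 0.18 for all genes. No member separated the groups fully, whereas 7.65% of all genes tested did. Cers1 had no count in any mouse.

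Total counts per library ranged from 20700912 to 22263809. With scaling by library size alone, without TMM factors (which correct for RNA composition), the median log2 fold change of all genes shifted by 0.08, and 67.9% of the called genes were higher in rNLS8 mice, compared to 51.4% with TMM. Under that scaling 7 of the 9 members were called (all but Cers6 and Smpd3), where 47% of all genes were, so the sign and call of small changes below are relative to the TMM scale. As a check of the labels, the mouse Tardbp row was higher in rNLS8 mice (log2 fold change 0.62 ± 0.071 SE, adjusted p = 1.50e-07, edgeR), with normalised counts in cohort B of 4405 to 5053 against 2507 to 2827 in controls. In cohort A the ranges were 2363 to 3091 and 2253 to 2650 and overlapped, and the difference was not called (0.26, adjusted p = 0.191). The library labelled rNLS8 replicate 9 had 2363, within the control range, so this check does not bear out its label, whereas rNLS8 replicates 8 and 10 had 3091 and 2903. Without replicate 9, Sptlc2 (log2 fold change 0.22, adjusted p = 0.000129, edgeR) and Ugcg (-0.28, adjusted p = 1.78e-05) were still called. Whether reads of the human transgene are counted in that row was not given. The marker counts that follow are to be read against the 44.7% of all genes that were called (23% higher and 21.7% lower). Of the 8 neuron markers 5 fell and none rose (summed level 4961 to 6194 CPM, counts relative to the TMM-adjusted library size, in rNLS8 and 6479 to 7946 in control mice), of the 7 astrocyte markers 1 rose and 5 fell (4404 to 5555 and 4965 to 6245 CPM), and of the 8 microglia markers 5 rose and 1 fell (388 to 572 and 368 to 427 CPM). None of the 8 oligodendrocyte markers passed the test (4237 to 7526 and 4412 to 7402 CPM), and 0 had an unadjusted p below 0.05 in edgeR or were called in DESeq2. Of 4 oligodendrocyte precursor markers 1 rose, and of 6 endothelial markers 1 rose and 2 fell. Of the markers of macrophages (5), T cells (1 of 4 tested), red blood cells (3) and choroid plexus (4), edgeR and DESeq2 called 0, and 2 macrophage markers had an unadjusted p below 0.05 in edgeR. The choroid plexus sum ranged from 13.5 to 2152 CPM in control and from 23.9 to 1108 CPM in rNLS8 mice. Each marker listed had at least 1 count in each group. In bulk tissue, fewer cells of a type and less RNA per cell cannot be told apart, and the part of cell composition in the results below was not tested except by the covariates named. In rNLS8 replicate 9, deviations from the other rNLS8 mice followed exon length over 16149 genes (Spearman rho -0.51), the strongest such relation of the 21 libraries. The strongest positive ones were in rNLS8 replicate 1 (0.33) and rNLS8 replicate 10 (0.29).

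**Figure D1:**
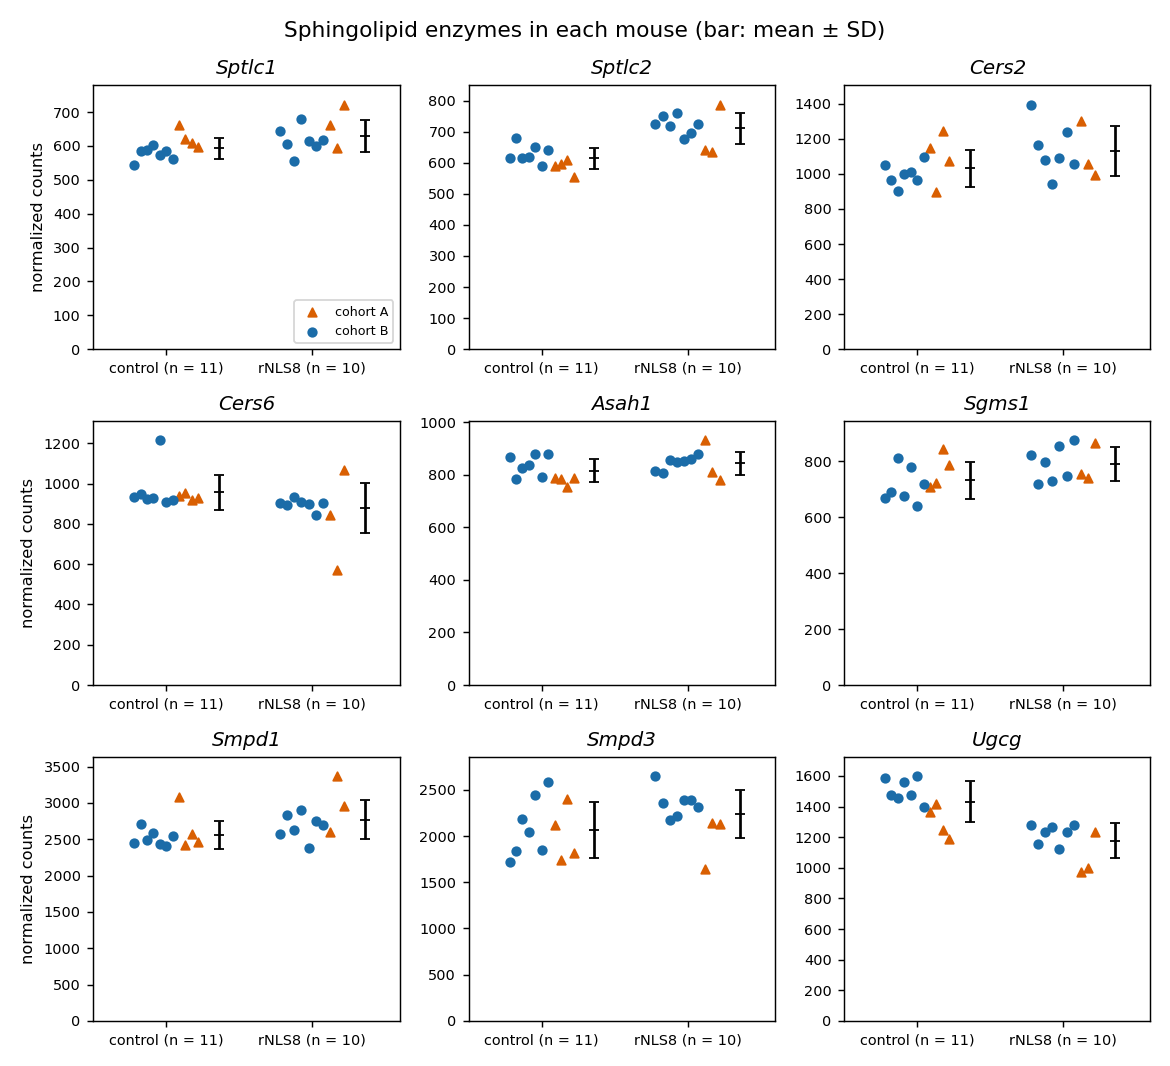
Normalised counts (y axis, from 0) of the 9 detected members in each control (n = 11) and rNLS8 (n = 10) mouse, with cohort A as triangles, cohort B as circles and the group mean ± SD as a bar. For Ugcg every rNLS8 mouse lies below the control median, and for Sptlc2 every rNLS8 mouse lies above it.

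The promoters of the members with a changed count, Sptlc2 and Ugcg, are shown first because the results turn on these genes, followed by those of Cers2 and Cers6, the only members in which a searched motif was found. Each window runs from 250 bases before to 50 bases after the start (RefSeq, GRCm38.p6), 5′ to 3′ on the gene's strand, and 8 of the 10 members had such a window. Capitals mark CACGTG, the core of the element bound by lysosomal regulators of the TFEB family.

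Sptlc2, chr12:87388306-87388605, minus strand: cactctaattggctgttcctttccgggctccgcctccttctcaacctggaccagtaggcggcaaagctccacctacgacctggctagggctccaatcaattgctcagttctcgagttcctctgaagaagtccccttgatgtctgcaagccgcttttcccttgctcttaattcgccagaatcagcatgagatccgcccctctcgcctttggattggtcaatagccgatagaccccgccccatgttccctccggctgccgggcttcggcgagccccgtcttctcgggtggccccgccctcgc
Ugcg, chr4:59189300-59189599, plus strand: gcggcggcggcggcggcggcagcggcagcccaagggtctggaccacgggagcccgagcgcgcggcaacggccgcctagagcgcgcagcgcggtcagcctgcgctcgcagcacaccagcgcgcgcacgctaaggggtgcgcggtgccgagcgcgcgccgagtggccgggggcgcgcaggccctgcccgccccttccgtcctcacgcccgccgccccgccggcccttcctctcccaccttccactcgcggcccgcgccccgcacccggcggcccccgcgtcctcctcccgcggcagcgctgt
Cers2, chr3:95314940-95315239, plus strand: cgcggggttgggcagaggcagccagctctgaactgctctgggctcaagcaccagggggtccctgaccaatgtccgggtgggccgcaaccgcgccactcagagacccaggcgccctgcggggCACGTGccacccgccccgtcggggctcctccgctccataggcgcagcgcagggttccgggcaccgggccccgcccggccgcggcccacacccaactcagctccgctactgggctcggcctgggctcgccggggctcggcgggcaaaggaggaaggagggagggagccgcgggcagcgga
Cers6, chr2:68861191-68861490, plus strand: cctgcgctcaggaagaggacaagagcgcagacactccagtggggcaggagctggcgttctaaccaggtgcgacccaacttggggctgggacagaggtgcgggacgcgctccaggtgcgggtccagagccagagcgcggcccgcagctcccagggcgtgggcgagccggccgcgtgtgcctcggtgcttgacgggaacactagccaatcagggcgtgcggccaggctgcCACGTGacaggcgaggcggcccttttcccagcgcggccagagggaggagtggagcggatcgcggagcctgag

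CACGTG reads the same on both strands and occurred in 7.15% of all 32851 windows. It began 22 bases before the start used for the Cers6 window and 129 bases before that of the Cers2 window shown. A further Cers2 window, chr3:95318580-95318879, had no match. The longer form TCACGTGA, which contains CACGTG, was found in 0.974% of windows. TCACNCCAC, a sterol regulatory element form, was found in 1.24% of windows. Neither had a match on either strand in the 8 members with a window. No searched motif was found in the windows shown for Sptlc2 and Ugcg. Of the other genes of the pathway 9 held CACGTG. Of these 3 rose (Degs1, Arsa and Gla), 1 fell (Sgpp2) and 5 were not called (Sgms2, Smpdl3b, Glb1, Smpd2 and Sphk1). This is close to the share of all genes called, 44.7% (23% higher and 21.7% lower). In Gla (alpha-galactosidase A) CACGTG lay within TCACGTGA, at 228 and 195 bases before the start. The window of Ugcg was the richest in G and C among the members (81.3%), and that of Sptlc2 held 59.3%.

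Serine palmitoyltransferase carries out the first step of the pathway. Its long-chain subunits Sptlc1 and Sptlc2 form a complex in which Sptlc2 binds the cofactor. Sptlc2 lies at chr12:87305058-87388355 and Sptlc1 at chr13:53332748-53377417 (GRCm38.p6), both on the minus strand. Normalised counts of Sptlc2 (counts scaled by the TMM-adjusted library size) were 553 at the lowest, 614 at the median and 681 at the highest in control mice, and 634, 721 and 788 in rNLS8 mice. The groups overlapped, but 7 of 10 rNLS8 mice were above every control mouse and 8 of 11 control mice were below every rNLS8 mouse. Mean normalised counts were 615 ± 34.5 (SD, n = 11) and 711 ± 49.7 (SD, n = 10), a log2 fold change of 0.21 ± 0.042 SE (adjusted p = 0.000292, edgeR). The difference was positive within each cohort. In cohort B the log2 fold change was 0.19, with 590 to 681 in control and 678 to 759 in rNLS8 mice. In cohort A the 4 control mice had 553, 588, 597 and 610 and the 3 rNLS8 mice 634, 641 and 788. These groups did not overlap, yet the test on cohort A alone did not reach the threshold (log2 fold change 0.25, adjusted p = 0.173). With 6710 bases of exon, Sptlc2 is among the longest members, and its lowest and highest rNLS8 counts came from replicates 9 and 10, whose deviations followed exon length in opposite directions. The part of this in the result was not tested, and without replicate 10 the log2 fold change was 0.17 (adjusted p = 0.000550, edgeR).

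Sptlc1 had 542, 588 and 661 normalised counts (lowest, median, highest) in control mice and 556, 617 and 722 in rNLS8 mice. Of 10 rNLS8 mice 9 were above the control median, and 3 of them were above every control mouse. A log2 fold change of 0.09 ± 0.041 SE did not pass the test (adjusted p = 0.0756, edgeR), although it did without rNLS8 replicate 3 (adjusted p = 0.0377) or rNLS8 replicate 9 (adjusted p = 0.0222). The ratio of Sptlc2 to Sptlc1 counts within a mouse, which needs no scaling between libraries and was chosen after the values were seen, was 1.04 ± 0.093 (SD, n = 11) in control and 1.13 ± 0.090 (SD, n = 10) in rNLS8 mice. It ranged from 0.89 to 1.16 and from 0.97 to 1.29, so the groups overlapped. These values pool the cohorts, which differed: the means in control and rNLS8 mice were 0.946 and 1.042 in cohort A and 1.093 and 1.173 in cohort B. The third long-chain subunit, Sptlc3, had 51 counts in all mice and was not tested.

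Of the other genes of this complex, its regulators and Kdsr, the reductase of the next step, 4 of 6 tested passed, 3 of them higher, where 44.7% of all genes passed and 23% were higher. In cohort A alone 1 of the 6 passed (11.8% of all genes), and with the microglia covariate 2 did (29.4% of all genes). Ormdl3 and Ormdl1, which inhibit the enzyme when sphingolipids are plentiful, rose by 0.51 ± 0.035 SE (adjusted p = 3.96e-11) and 0.41 ± 0.086 SE (adjusted p = 0.000415, edgeR) on the log2 scale. All 10 rNLS8 mice had more Ormdl3 (1346 to 1828 normalised counts) than any control mouse (930 to 1168). The log2 fold change of Ormdl1 was 0.19 in cohort A, where it was not called (adjusted p = 0.534), and 0.51 in cohort B. Sptssb, a small activating subunit that shifts the enzyme towards longer acyl chains, fell by 0.54 ± 0.13 SE (adjusted p = 0.00130, edgeR) from 56.6 ± 12.4 normalised counts (SD, n = 11). Sptssb was not called with the microglia covariate (-0.39, adjusted p = 0.103) or in cohort A alone (-0.51, adjusted p = 0.211).

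Ceramide synthases differ in the fatty acids they attach: Cers2 prefers very long chains, which are typical of myelin lipids, Cers5 and Cers6 prefer C16 chains, and Cers1, the main synthase of neurons, prefers C18 chains. Cers1 (chr8:70315775-70331588) was listed at 0 in all 21 mice, where a count of 0 allows up to 3 counts, or 0.135 to 0.145 CPM. The same was true of Gdf1, with which Cers1 shares its start and a bicistronic transcript. Of 58 protein-coding genes that share a RefSeq start with another, 27 (46.6%) were at 0 in every mouse, compared to 14.5% of all 21900 protein-coding genes in the table. How reads in shared transcripts were assigned was not given, and the zeros are therefore no measure of Cers1 expression.

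Cers2 had 899, 1010 and 1243 normalised counts (lowest, median, highest) in control and 943, 1083 and 1396 in rNLS8 mice. The groups overlapped over most of their range. A log2 fold change of 0.14 ± 0.067 SE did not pass the test (adjusted p = 0.10, edgeR), but did without control replicate 10 (adjusted p = 0.0400) or rNLS8 replicate 10 (adjusted p = 0.0456). It was 0.06 in cohort A and 0.18 in cohort B. Cers2 overlaps Setdb1, Anxa9 and a predicted gene, and reads of the opposite strand cannot be told apart without strand-specific counting, which was not stated.

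Cers6 showed another distribution. Control mice had 908, 929 and 1215 normalised counts (lowest, median, highest) and rNLS8 mice 571, 901 and 1069. Among rNLS8 mice 8 of 10 had fewer counts than any control mouse, while rNLS8 replicate 10 had more than 10 of the 11 control mice, and rNLS8 replicate 9 had the lowest count of all. Cers6 has 7062 bases of exon, the most of the members, and the part of the relation to exon length in these libraries was not tested. The spread in rNLS8 mice (coefficient of variation 14.2%) was the widest of the 9 members in that group. The log2 fold change was -0.13 ± 0.072 SE and did not pass the test (adjusted p = 0.151, edgeR). It was -0.19 (adjusted p = 0.0250) without rNLS8 replicate 10 and -0.07 (adjusted p = 0.300) without rNLS8 replicate 9, the lowest and highest of the fits that left out 1 mouse. Without rNLS8 replicates 8 and 9 it was -0.05.

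Of the other genes of ceramide synthesis, 2 of 4 tested rose and none fell, where 44.7% of all genes passed the test. Cers5 rose by 0.23 ± 0.045 SE on the log2 scale (adjusted p = 0.000173, edgeR), from 520 to 623 normalised counts in control mice to 579 to 734 in rNLS8 mice. Degs1, the desaturase that converts dihydroceramide to ceramide, rose by 0.12 ± 0.043 SE (adjusted p = 0.0232, edgeR). Neither was called in cohort A alone (0.32, adjusted p = 0.0724, and 0.10, adjusted p = 0.573), and Degs1 was also not called with the microglia covariate, at a similar log2 fold change (0.13, adjusted p = 0.117). Cers4 did not pass the test (log2 fold change 0.10, adjusted p = 0.199, edgeR), and Cers3, with 82 counts in all mice, was not tested.

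Ugcg transfers glucose to ceramide and commits it to glucosylceramide and most gangliosides. The gene lies at chr4:59189507-59222833 on the plus strand. Control mice had 1189, 1457 and 1598 normalised counts (lowest, median, highest) and rNLS8 mice 974, 1234 and 1282. Each of the 10 rNLS8 mice was below the control median, 4 of them lower than any control, and 9 of 11 control mice were above every rNLS8 mouse. Mean normalised counts were 1433 ± 131 (SD, n = 11) and 1178 ± 113 (SD, n = 10), a log2 fold change of -0.30 ± 0.045 SE (adjusted p = 9.02e-06, edgeR). In cohort B the groups did not overlap (1397 to 1598 in control and 1121 to 1282 in rNLS8 mice). In cohort A control mice had 1189, 1246, 1362 and 1414 and rNLS8 mice 974, 1000 and 1233, with the highest rNLS8 mouse above the lowest control mouse and a log2 fold change of -0.26 (adjusted p = 0.165). Mean counts were also lower in cohort A (1303) than in cohort B (1507) among control mice, which the cohort term takes into account. With the mean log2 CPM of the microglia markers as a covariate the log2 fold change was -0.21 and was still called. Ugcg overlaps no other annotated gene. As 5 of 8 neuron markers also fell in rNLS8 mice, to summed levels below those of every control mouse, the part of neuronal RNA in the Ugcg result was not tested.

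The enzymes that act after Ugcg moved in both directions. Of 10 genes of ganglioside synthesis 4 rose and 4 fell, where 44.7% of all genes passed the test. In cohort A alone 2 of them passed (11.8% of all genes), and with the microglia covariate 4 did (29.4% of all genes). St8sia5 and St3gal3, both sialyltransferases, rose by 0.33 ± 0.064 SE and 0.21 ± 0.051 SE on the log2 scale, whereas St8sia3 fell by 0.57 ± 0.084 SE and St3gal5, the synthase of the ganglioside GM3, fell by 0.23 ± 0.051 SE. Adjusted p-values of these genes, in this order, were 0.000139, 0.00199, 5.92e-06 and 0.000741 (edgeR). St3gal3 and St3gal5 were not called in cohort A alone (0.32, adjusted p = 0.123, and -0.15, adjusted p = 0.518), nor was St3gal5 with the microglia covariate (-0.17, adjusted p = 0.0670). Of the 5 genes for galactosylceramide and sulfatide, Arsa, the sulfatidase of the lysosome, rose by 0.41 ± 0.051 SE (adjusted p = 5.15e-07) and Ugt8a, the synthase of galactosylceramide in oligodendrocytes, fell by 0.36 ± 0.12 SE (adjusted p = 0.0133, edgeR). Ugt8a was not called in cohort B alone (-0.15, adjusted p = 0.237), without rNLS8 replicates 8 and 9 (-0.21, adjusted p = 0.0723), with library size only (-0.28, adjusted p = 0.0513) or with the microglia covariate (-0.23, adjusted p = 0.279). These 2 of 5 genes compare with 44.7% of all genes, and with the oligodendrocyte covariate 4 of the 5 passed (45.1% of all genes).

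Lysosomal enzymes take glycosphingolipids apart sugar by sugar. Of the 7 genes of lysosomal breakdown reported here, 5 rose and 1 fell, where 23% of all genes rose and 21.7% fell. Gla, which removes galactose from globosides, rose by 0.87 ± 0.070 SE on the log2 scale (adjusted p = 4.61e-10, edgeR), and normalised counts of 420 to 659 in rNLS8 mice lay above the 224 to 336 in every control mouse. Neu1, a sialidase, rose by 0.32 ± 0.051 SE (adjusted p = 1.49e-05, edgeR), from 820 to 1021 in control to 1043 to 1433 normalised counts in rNLS8 mice, again without overlap. Psap, the precursor of the saposins that assist these enzymes, fell by 0.21 ± 0.052 SE (adjusted p = 0.00253, edgeR). Neu1 and Psap were not called in cohort A alone (0.38, adjusted p = 0.0575, and -0.11, adjusted p = 0.646). With the mean log2 CPM of the microglia markers as a covariate 3 of the 7 passed the test (29.4% of all genes). In cohort A alone 1 did (11.8% of all genes). Neither of the 2 genes of non-lysosomal breakdown passed in edgeR or DESeq2, and 0 had an unadjusted p below 0.05 in edgeR. In cohort B alone 1 passed (39.1% of all genes), as 1 did without control replicate 8 (8059 of 18183 genes in all).

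**Figure D2:**
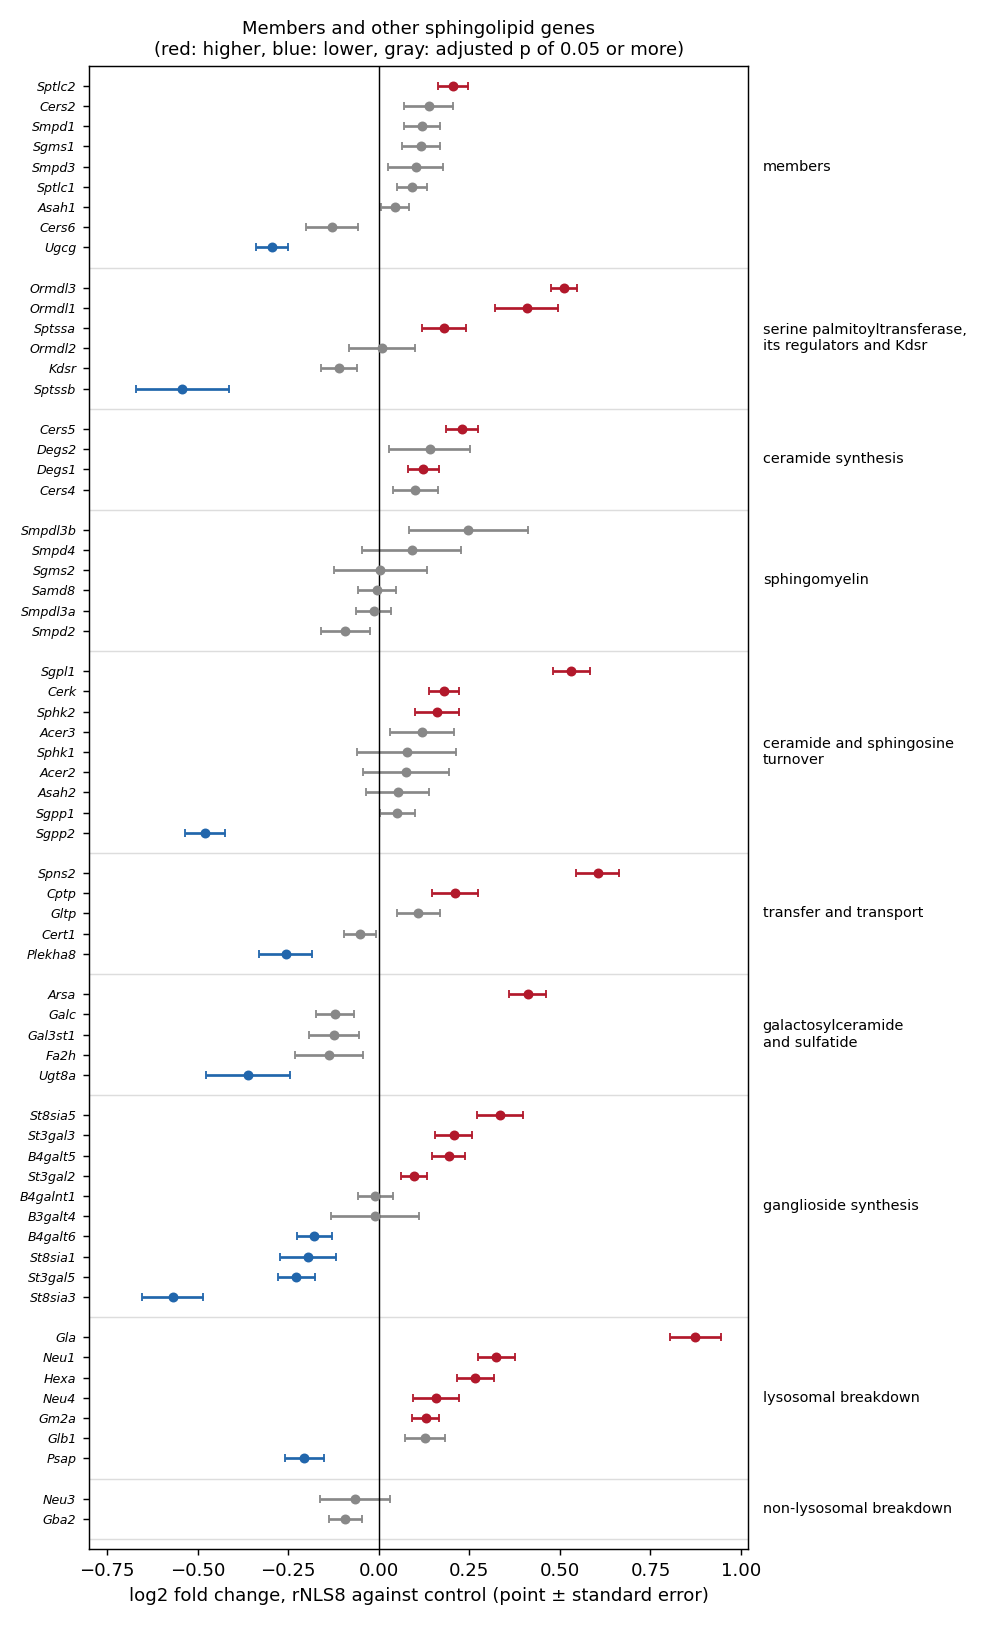
Log2 fold change of rNLS8 against control mice (x axis, point ± standard error) for the 9 members tested and 54 other sphingolipid genes (y axis), grouped by step. Red and blue mark genes that rose and fell at an adjusted p below 0.05, and gray the rest. Gla at 0.87 lies farthest to the right, whereas the members lie between -0.30 and 0.21.

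Sphingomyelin is made from ceramide by Sgms1 and cleaved by sphingomyelinases, the acid form Smpd1 in lysosomes and the neutral form Smpd3, which is highly expressed in neurons. None of these members passed the test, and all had a positive log2 fold change. Sgms1 had 641, 719 and 843 normalised counts (lowest, median, highest) in control and 719, 776 and 874 in rNLS8 mice, with 3 rNLS8 mice above and 5 control mice below the range of the other group. The log2 fold change was 0.12 ± 0.053 SE (adjusted p = 0.0760, edgeR). Sgms1 was called without control replicate 3 (adjusted p = 0.0400), control replicate 10 (adjusted p = 0.0328) or rNLS8 replicate 9 (adjusted p = 0.0414).

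Smpd1 had 2405, 2491 and 3086 normalised counts (lowest, median, highest) in control mice and 2380, 2727 and 3368 in rNLS8 mice. The range of the rNLS8 mice enclosed that of the controls, although 9 of 10 rNLS8 mice were above the control median. The log2 fold change of 0.12 ± 0.050 SE was close to the threshold (adjusted p = 0.0539, edgeR, and 0.0440, DESeq2). Leaving out rNLS8 replicate 1 (adjusted p = 0.04996), 5 (0.0247) or 8 (0.0261), or control replicate 2 (0.0386) or 8 (0.0170), brought it past the threshold. Smpd3 varied most among control mice, with 1721, 2049 and 2585 normalised counts and a coefficient of variation of 14.8%. In rNLS8 mice it had 1649, 2267 and 2649, and both ends of this range lay outside that of the controls. Its log2 fold change was 0.10 ± 0.075 SE (adjusted p = 0.287, edgeR), with -0.01 in cohort A and 0.16 in cohort B.

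The count ratio of Smpd1 to Sgms1 within a mouse, a lysosomal breakdown enzyme over a synthase, was 3.53 ± 0.42 (SD, n = 11) in control and 3.53 ± 0.52 (SD, n = 10) in rNLS8 mice. The range was 3.04 to 4.36 and 2.79 to 4.55. Within cohorts the means in control and rNLS8 mice differed in opposite directions, 3.47 and 3.80 in cohort A and 3.56 and 3.42 in cohort B. No other gene of the sphingomyelin list passed the edgeR test (0 of 6 tested, against 44.7% of all genes; DESeq2 also called 0, and 0 had an unadjusted p below 0.05 in edgeR). Of this list, Smpd5 (175 counts in all mice) and Enpp7 (no counts) were not tested.

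Asah1, the acid ceramidase, cleaves ceramide to sphingosine and a fatty acid in lysosomes. It had 752, 790 and 880 normalised counts (lowest, median, highest) in control and 778, 850 and 931 in rNLS8 mice. The groups overlapped almost entirely, and the coefficient of variation was 5.44% in control and 5.18% in rNLS8 mice. The log2 fold change of 0.05 ± 0.038 SE was the smallest of the members (adjusted p = 0.353, edgeR). It was 0.018 without rNLS8 replicate 8, and 0.13 in cohort A against 0.0049 in cohort B. A further row with the same symbol, of which the deposited table does not say what it counts, had 94.9 to 360 normalised counts in control and 97.8 to 324 in rNLS8 mice, and Asah1-2, as this row is named, had a log2 fold change of -0.09 ± 0.20 SE (adjusted p = 0.740, edgeR). Asah1 also overlaps Frg1.

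Of the other genes of ceramide and sphingosine turnover, 3 of 9 tested rose and 1 fell, close to the 44.7% of all genes that passed. In cohort A alone 2 passed (11.8% of all genes). Sgpl1, the lyase that removes sphingosine-1-phosphate from the pathway for good, rose by 0.53 ± 0.052 SE on the log2 scale (adjusted p = 1.09e-08, edgeR), with 851 to 1198 normalised counts in rNLS8 mice above the 674 to 792 in control mice. Cerk, the ceramide kinase, rose by 0.18 ± 0.041 SE (adjusted p = 0.000912), and Sgpp2, a phosphatase of sphingosine-1-phosphate, fell by 0.48 ± 0.056 SE (adjusted p = 1.92e-07, edgeR). Cerk was not called in cohort A alone, where its log2 fold change was larger (0.29, adjusted p = 0.0752). Acer1 had 1 count in all mice and was not tested. Among carriers, 2 of 5 tested rose and 1 fell, where 23% of all genes rose and 21.7% fell, and in cohort A alone 1 passed (11.8% of all genes). Spns2, the exporter of sphingosine-1-phosphate, rose by 0.60 ± 0.059 SE (adjusted p = 1.29e-08) and Cptp, which moves ceramide-1-phosphate, by 0.21 ± 0.063 SE (adjusted p = 0.00837, edgeR). Plekha8, a glucosylceramide carrier of the Golgi, fell by 0.26 ± 0.072 SE (adjusted p = 0.00533, edgeR). In cohort A alone Cptp (0.27, adjusted p = 0.277) and Plekha8 (-0.38, adjusted p = 0.200) had larger log2 fold changes but were not called, nor was Plekha8 with library size only (-0.18, adjusted p = 0.0536) or the microglia covariate (-0.23, adjusted p = 0.0799). Abca12 had 77 counts in all mice and was not tested.

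Over all these lists 29 of 54 other sphingolipid genes passed the test (53.7%), 20 higher and 9 lower, out of 60 listed, with a median log2 fold change of 0.08. The background over all genes was 44.7%, and the lists were described by counts alone.

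**Figure D3:**
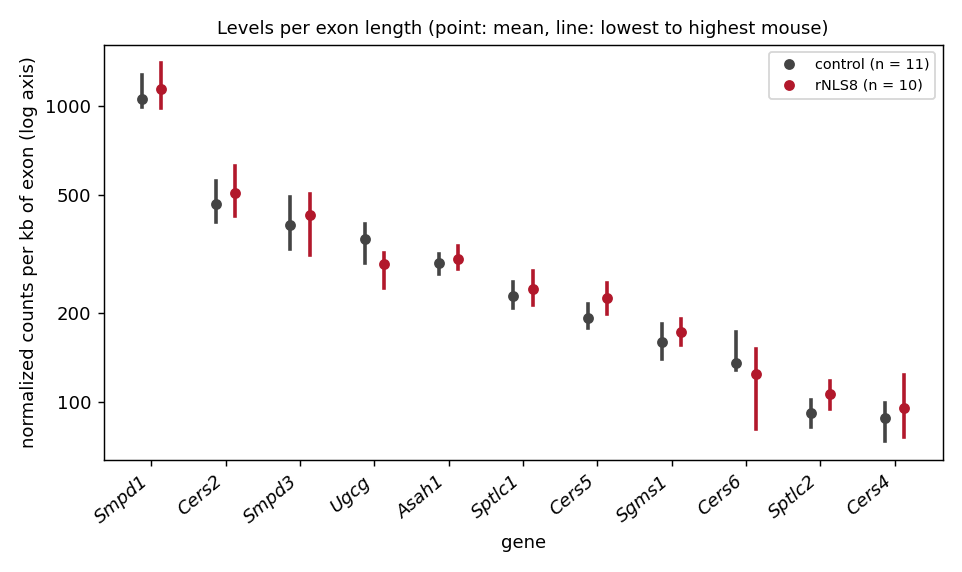
Normalised counts per kilobase of exon (y axis, log scale) for the detected members and for Cers4 and Cers5 in control (black, n = 11) and rNLS8 mice (red, n = 10), as the group mean (point) and the lowest to highest mouse (line). Smpd1 stands alone at the top, with about 1061 in control mice, and Sptlc2 is the lowest member at 91.6.

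To compare levels between genes, normalised counts were divided by the length of the merged exons. In control mice Smpd1 was the highest member, with 1061 ± 81.3 normalised counts per kilobase (SD, n = 11), and its range did not overlap that of any other member. Cers2 (466 ± 47.4), Smpd3 (395 ± 58.4) and Ugcg (357 ± 32.7) followed, with overlapping neighbours. Asah1 (294 ± 16.0) overlapped with Ugcg but not with Sptlc1 (228 ± 12), which in turn lay above Sgms1 (159 ± 14.1) and Cers6 (135 ± 12.3), a pair that overlapped. Sptlc2 was the lowest member with 91.6 ± 5.13 per kilobase, below every value of Cers6. In rNLS8 mice the mean of Ugcg (294 per kilobase) was below that of Asah1 (304 per kilobase), with overlapping ranges, and the other members kept their order of means. Cers5 (193 ± 11.3) had a higher level per kilobase than Cers6 (135 ± 12.3) in control mice, without overlap. Levels per kilobase assume that all annotated exons are used.

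The members varied among themselves with little in common. Over the 21 mice, after removal of genotype and cohort means, 21 of 36 pairs of members had a positive Pearson r, with a median of 0.08. The highest were Sptlc2 with Cers6 (r = 0.59) and Sgms1 with Smpd3 (r = 0.53). Without rNLS8 replicates 9 and 10, left out after the values were seen, r of Sptlc2 with Cers6 was 0.33 (19 mice). All points share the libraries and their scaling, and these values are descriptions. Measured the same way over 14583 genes with a mean of at least 50 counts, the genes most like Sptlc2 were Ttpal (r = 0.88), Pcnx4 (r = 0.80) and Rrp12 (r = 0.79), and those most like Ugcg were Slc25a51 (r = 0.92), Bri3bp (r = 0.89) and Sv2b (r = 0.88). The log2 fold change between genotypes had the sign of the member for 4 of these 6 genes and the opposite sign for Ttpal (-0.40) and Bri3bp (0.23).

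The genotype difference was then compared between cohorts. Its sign was the same in cohorts A and B for 8 of the 9 members, Smpd3 being the exception. No member passed the test of the interaction of genotype and cohort (lowest unadjusted p = 0.220, adjusted p = 0.878, edgeR). Over all 18248 genes the interaction called none in edgeR, with 1030 genes (5.64%) at an unadjusted p below 0.05, and 1 in DESeq2. The number at an unadjusted p below 0.05 was 1696 without rNLS8 replicate 8, where 1 gene was called, and 2271 without rNLS8 replicate 10, and the lowest unadjusted p of the members was then 0.0701 and 0.0435 (adjusted p = 0.569 and 0.389, edgeR). In cohort B alone Sptlc2 and Ugcg were called, where 39.1% of all genes were, and in cohort A alone none of the 9 members was, where the share of all genes was 11.8%. DESeq2 with cohort called 3 members (Sptlc2, Ugcg and Smpd1) and 45.1% of all genes. With the microglia marker level as a covariate Sptlc2 (0.24) and Ugcg (-0.21) were called, and 29.4% of all genes. Without rNLS8 replicates 8 and 9 there were 4 called members (Sptlc1, Sptlc2, Ugcg and Sgms1) and 41.7% of all genes.

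**Figure D4:**
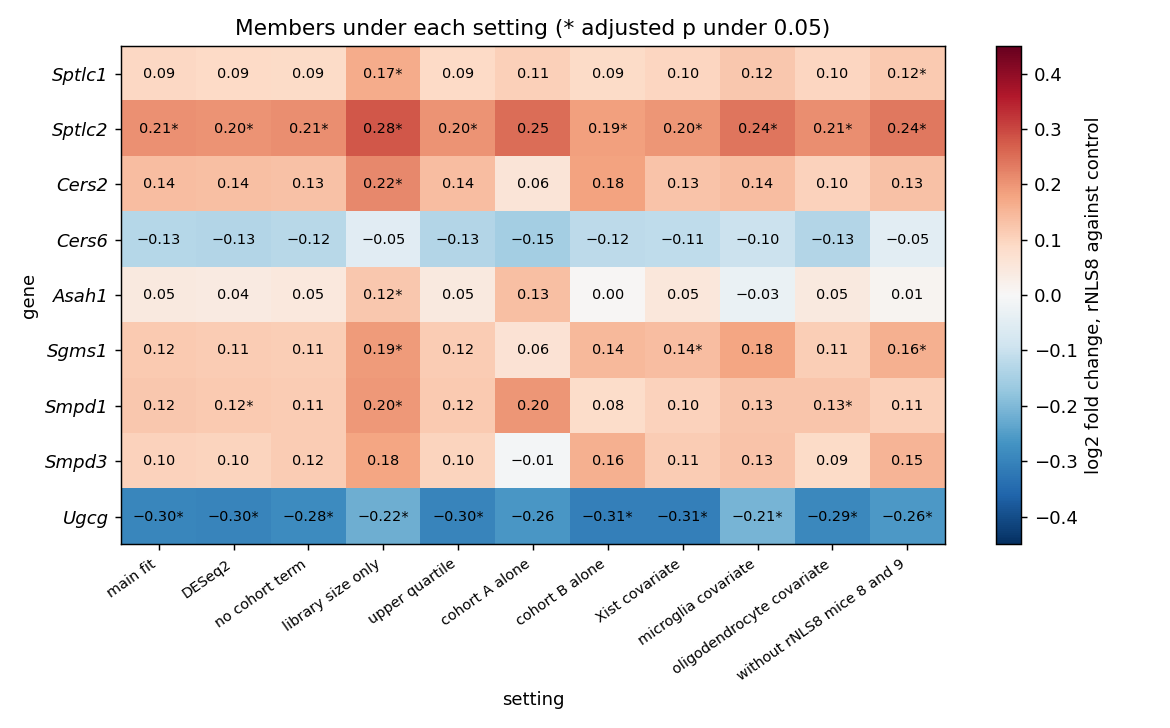
Log2 fold change of rNLS8 against control mice (color and number in each cell) for the 9 members (y axis) under 11 settings (x axis), with an asterisk where the adjusted p was below 0.05. Ugcg is negative and Sptlc2 positive under all 11, and each loses its asterisk only in cohort A alone.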

How the data were processed

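Neocortex of 21 mice was analysed by mRNA sequencing (paired-end, BGI). The authors deposited raw counts per gene symbol, without normalization. The submitters' processing notes name HISAT2, Bowtie2, RSEM and the build mm10 (GRCm38). Whether the whole counts are rounded RSEM estimates, how overlapping genes were counted and whether strand was used were not given in the sources used here. Total counts per mouse were 20700912 to 22263809, which allows up to 0.145 CPM where a gene had no count (3 counts). These floors cover counting error only. Rows of further copies of a symbol (2553 of 48474, 4.11% of counts) were kept.

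Counts were filtered (edgeR 4.0.16 defaults, minimum count 10, minimum total 15), TMM-normalised and tested by edgeR's quasi-likelihood test in R 4.3.3, in a model of genotype plus cohort, and p-values were adjusted by Benjamini-Hochberg over 18248 genes (threshold 0.05). Standard errors were derived from the F statistic. DESeq2 1.42.0 with cohort was an alternative, as were other normalizations, filters, covariates and subsets of mice. The scripts were tested on simulated data. No libraries were duplicates (chi-square per gene at least 3.85). The members and gene lists were chosen with earlier results of these data known. Named were all members, the genes with the 2 largest rises and 2 largest falls past the threshold in each pathway list, genes too low to test, Tardbp, and the 3 genes most like Sptlc2 and Ugcg. Genes not called are named beside members only for comparison and were chosen after their values were seen. Some genes of the pathway are not reported here and were left out of its counts. Marker lists are given as counts and summed levels. Replicates were numbered in the order of the labels. Promoter windows and positions came from RefSeq (GRCm38.p6).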

Additional observations from a re-analysis of the deposited data

Results flagged for a closer look

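Of 36 groups of members' values tested for a single mouse that stands apart from the rest of its group (Dixon's test at 95%), 4 had such a mouse, where chance gives about 1 in 20, or 1.8. For Cers6 in cohort B control mice, replicate 5 was high (1215 normalised counts, next mouse 948, ratio of gap to range 0.870). For Cers6 in the 10 rNLS8 mice of cohorts A and B together, replicate 9 (cohort A) was low (571, next mouse 845, ratio 0.550). For Smpd3 in the same 10 mice, replicate 8 (cohort A) was low (1649, next mouse 2132, ratio 0.483). Mean Smpd3 counts in rNLS8 mice were 1974 in cohort A and 2354 in cohort B. The part of cohort in these pooled groups was not tested. For Asah1 in cohort A control mice, replicate 10 was low (752, next mouse 785, ratio 0.944), in a group of 4 that otherwise spanned 785 to 787.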

How the results depend on the processing

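Sptlc2 and Ugcg kept their direction under every alternative run and were called in 21 of 21 fits that left out 1 mouse (log2 fold change 0.17 to 0.22 and -0.33 to -0.28). They were lost in cohort A alone (0.25, adjusted p = 0.173, and -0.26, adjusted p = 0.165), which holds 7 mice. With library size only, log2 fold changes of 0.17 for Sptlc1, 0.22 for Cers2, 0.19 for Sgms1, 0.20 for Smpd1 and 0.12 for Asah1 were called, so that 7 members passed the test. Without rNLS8 replicates 8 and 9, Sptlc1 (0.12) and Sgms1 (0.16) were also called, making 4 members. Sgms1 was called with Xist as a covariate (0.14). Smpd1 (0.12 in each) was called with DESeq2, with at least 10 counts in every mouse, and with further copies left out or added to the first row, and with oligodendrocyte markers as a covariate (0.13). Smpd3 turned to -0.0089 in cohort A alone and Asah1 to -0.031 with microglia markers as a covariate, neither being called. Cohort A alone called 0 members, 9 other sphingolipid genes and 2195 genes in all, and with the microglia covariate 17 other sphingolipid genes and 5373 genes in all were called. The cause of these shifts was not tested. Fits without 1 mouse gave 2 to 4 members (4 without control replicate 10, rNLS8 replicate 9 or rNLS8 replicate 10) and 25 to 30 other sphingolipid genes, of 7805 to 8363 genes called in all, with log2 fold changes of 0.073 to 0.11 for Sptlc1, 0.10 to 0.17 for Cers2, -0.19 to -0.068 for Cers6, 0.10 to 0.14 for Sgms1, 0.088 to 0.14 for Smpd1, 0.070 to 0.14 for Smpd3 and 0.018 to 0.059 for Asah1. No paired analysis was possible because the labels give no replicate numbers shared between the groups.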
